A study of Mus musculus with 12 samples.

Results

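The 8 genes described here encode cyclooxygenases (Ptgs1 and Ptgs2), terminal prostaglandin synthases (Ptges, Ptges2 and Ptgis) and receptors for prostaglandin E (Ptger1, Ptger2 and Ptger4). They were taken by symbol from the count tables of a mouse study, and all 8 were present among the 22290 genes that the tables of both ages listed. RNA was sequenced from primary podocytes, the epithelial cells that wrap the glomerular capillaries, of mice made diabetic with HFD/STZ. The knockout libraries were from mice of genotype Cre+/Nsd2fl/fl and the control libraries from mice of genotype Cre-/Nsd2fl/fl, so that floxed alleles and diabetic injury were common to all groups. Cells of both genotypes were collected at ages of 20 and 28 weeks, and each of these 4 groups had 3 libraries, 12 in all. The study describes the knockout as podocyte-specific, but the labels do not name the promoter that drives Cre. The study asks which transcripts depend on Nsd2, a histone methyltransferase, in the early and the advanced stage of diabetic kidney disease. No group without diabetes was analysed here. Whether replicate libraries stem from different mice is not said in the labels, so p-values here reflect only how libraries vary, which may be technical.

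Prostaglandins are made from arachidonic acid, which phospholipases release from membranes. The cyclooxygenases turn it into the unstable intermediate PGH2, and a terminal synthase then sets the product: PGE2 by the prostaglandin E synthases and prostacyclin by Ptgis. PGE2 leaves the cell and acts on G protein-coupled receptors, of which EP2 and EP4 raise cyclic AMP and EP1 raises calcium. In the kidney these lipids regulate glomerular blood flow, renin release and salt handling, and cyclooxygenase and EP receptors have been studied in podocytes as mediators of injury.

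On the GRCm38 build, Ptges occupies chr2:30889471-30929863 on the minus strand and Ptger2 occupies chr14:44988195-45003820 on the plus strand (GENCODE M21). These were the 2 members that passed the test of knockout against control, at 20 weeks for Ptges and at 28 weeks for Ptger2, and the 200 bases before their RefSeq starts are printed for that reason. The Ptges window is chr2:30903298-30903497 on the minus strand, and its start lies inside the longer GENCODE gene model. The Ptger2 window is chr14:44987911-44988110 on the plus strand. Both are given 5′ to 3′ on the strand of the gene, from RefSeq on GRCm38.p6, with motif matches in capitals.
Ptges: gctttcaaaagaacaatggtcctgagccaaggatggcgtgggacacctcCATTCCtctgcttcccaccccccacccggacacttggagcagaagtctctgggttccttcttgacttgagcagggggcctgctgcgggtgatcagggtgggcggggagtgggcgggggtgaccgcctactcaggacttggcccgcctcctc
Ptger2: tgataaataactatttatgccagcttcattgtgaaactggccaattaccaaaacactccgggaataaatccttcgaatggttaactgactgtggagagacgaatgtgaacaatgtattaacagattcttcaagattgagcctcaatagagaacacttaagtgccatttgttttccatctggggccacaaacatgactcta
The Ptges window was 63% G and C, and the Ptger2 window was 38.5% G and C. The capitals in Ptges are a match to GGAATG, a TEAD motif, on the opposite strand at position -151 from the start. The motif was present in 12.6% of 32851 RefSeq promoters over the 250 bases before the start, so a match is common. The other motifs searched on both strands were the TATA box TATAAA, held by 12.4% of promoters, the cyclic AMP response element core TGACG, held by 17.8%, the E-box CACGTG, held by 6.02%, the AP-1 motif TGANTCA, held by 6.75%, and a motif of the NF-kB kind, held by 0.356%. None of these overlapped the match in Ptges. The Ptger2 window held no match to any of the 6 motifs. A promoter sequence was found for 6 of the 8 genes, the exceptions being Ptgis and Ptger1, and of the other 4 only Ptges2 held a match, to GGAATG at -146 and to CACGTG at -77.

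The libraries held between 31405349 and 38989180 counts each. Nsd2 had 51.7, 34.1 and 44.96 depth-normalised counts (CPM) in the 3 knockout libraries at 20 weeks, against 94.2, 66.6 and 79.0 CPM in the controls. At 28 weeks it had 35.2, 35.2 and 42.9 CPM in knockouts, against 87.2, 77.6 and 80.1 CPM in controls. Nsd2 was thus lower in all knockout libraries at both ages but still detected, with log2 fold changes of -0.88 (edgeR adjusted p = 0.0402) and -1.11 (edgeR adjusted p = 0.00431). The 20-week call for Nsd2 ended when any control, or knockout 2 or 3, was left out, with adjusted p between 0.0729 and 0.164, whereas the 28-week call held in all 6 such fits. All 12 podocyte markers on the list used were detected, but nephrin (Nphs1) was low, at 0.914 to 15.2 CPM. Synaptopodin (Synpo) ran between 48.6 and 491 CPM. Of these markers 7 rose and 1 fell in knockouts at 20 weeks, and none rose and 2 fell at 28 weeks. The summed CPM of 8 parietal and simple epithelial markers was 2128 at 20 weeks and 7079 at 28 weeks in knockout 1, while knockouts 2 and 3 had 447 and 411 at 20 weeks and 191 and 730 at 28 weeks. The keratin gene Krt8 gave 980 and 5545 CPM of the sums of knockout 1, and at 28 weeks 6 of the 8 markers were lower in knockout 1 than in every control. Of the 12 podocyte markers 11 were lower in knockout 1 at 28 weeks than in every control, against 3 in knockout 2 and 5 in knockout 3. The summed podocyte markers gave 516, 2206 and 1216 CPM in these knockouts and 854 to 1541 CPM in controls. Controls 2 and 3 at 28 weeks were nearly alike, with a biological coefficient of variation of 0.0472 between them, against 0.219 to 0.414 for the other pairs of libraries within a group.

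All 8 prostaglandin genes passed the filter on low counts at both ages. At 20 weeks 1 of the 8, Ptges, fell in knockouts and none rose. At 28 weeks 1 of the 8, Ptger2, rose and none fell. A call is an adjusted p below 0.05 over all genes tested, and 9.92% of 14853 genes were called at 20 weeks (4.79% higher and 5.13% lower in knockouts) and 21.2% of 15011 at 28 weeks (9.33% higher and 11.9% lower). A count of 1 in 8 is near the first share and below the second, so the genes as a list were not called more often than genes in general. Log2 fold changes of knockout over control were positive for 6 of the 8 genes at 20 weeks, with a median of 0.34, and for 7 of the 8 at 28 weeks, with a median of 0.70. The medians over all genes tested were 0.01 and 0.07. The unadjusted p was below 0.05 for 4 of the 8 genes at 20 weeks and for 5 at 28 weeks, against 3719 of 14853 and 5225 of 15011 genes. The adjusted p of the genes not called ran between 0.0535 and 0.839 at 20 weeks and between 0.0877 and 0.854 at 28 weeks.

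**Figure D1:**
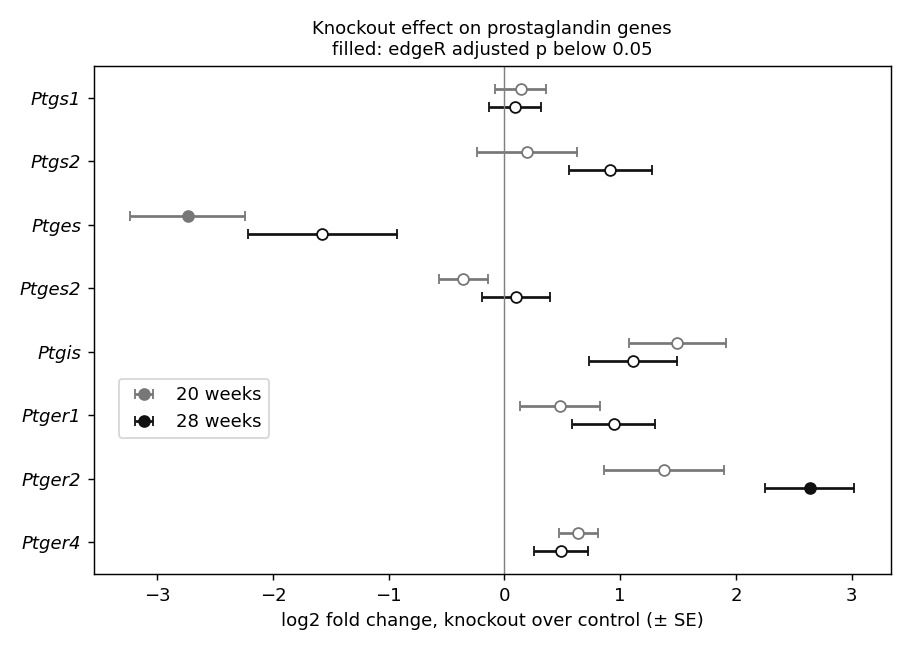
Log2 fold change of knockout over control for the 8 genes, with its standard error, at 20 weeks (grey) and 28 weeks (black); filled points passed the edgeR test. Ptges at 20 weeks (-2.74) and Ptger2 at 28 weeks (2.64) are the filled points, and Ptges lies left of 0 at both ages.

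Levels were compared between genes on the deposited FPKM scale, which corrects for length. In all 4 groups the mean levels ranked in the order Ptgs2, Ptges2, Ptgs1 and Ptger4, and the other 4 genes had mean levels below these. Ptgs2 averaged 40.3 ± 22.8 FPKM in knockouts and 37.3 ± 13.6 FPKM in controls at 20 weeks, and 57.4 ± 25.4 FPKM in knockouts and 32.3 ± 9.31 FPKM in controls at 28 weeks (SD, n = 3 each). Ptges2 followed with 15.6 ± 1.76 FPKM in knockouts and 21.2 ± 4.51 FPKM in controls at 20 weeks (SD, n = 3 each). Ptgs1 and Ptger4 lay within each other's spread in 28-week knockouts, at 9.95 ± 1.20 and 9.78 ± 2.63 FPKM. Among the 4 low genes, Ptges led in controls at both ages, with 1.52 ± 0.768 FPKM at 20 weeks and 1.98 ± 0.318 FPKM at 28 weeks. Ptges came last of the 8 in 20-week knockouts, at 0.210 ± 0.106 FPKM, and in 28-week knockouts the means of Ptgis, Ptges, Ptger2 and Ptger1 lay between 0.472 and 0.720 FPKM. There neighbours in that order overlapped, while the libraries of Ptgis (0.582 FPKM or more) and Ptger1 (0.553 FPKM or less) did not.

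Neither cyclooxygenase passed the test at either age. Ptgs1, the form that most cells make constantly, had 70.8, 60.1 and 55.6 CPM in knockouts at 20 weeks, against 52.5, 43.6 and 72.8 CPM in controls. At 28 weeks Ptgs1 had 47.8, 46.4 and 56.4 CPM in knockouts, against 63.2, 37.9 and 40.2 CPM in controls. The groups overlapped at both ages, and the log2 fold changes were 0.14 ± 0.22 and 0.09 ± 0.22 (SE; edgeR adjusted p = 0.757 and 0.818).

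Ptgs2, the inducible cyclooxygenase and the most abundant of the 8 genes, varied widely between libraries of 1 group. At 20 weeks it had 291, 85.6 and 170 CPM in knockouts, against 117, 131 and 231 CPM in controls. At 28 weeks Ptgs2 had 155, 244 and 376 CPM in knockouts, against 95.0, 149 and 167 CPM in controls. Knockouts 2 and 3 were above every control at 28 weeks and knockout 1 was not. The log2 fold change was 0.19 ± 0.43 at 20 weeks (SE; edgeR adjusted p = 0.839), where its sign rested on knockout 1: without that library it was -0.31. At 28 weeks it was 0.91 ± 0.36 (SE; edgeR adjusted p = 0.126).

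Ptges, the inducible microsomal synthase that works downstream of Ptgs2 to make PGE2, was the member that fell. At 20 weeks Ptges had 1.24, 0.681 and 0.455 CPM in knockouts, against 8.17, 3.69 and 4.08 CPM in controls. Every knockout library was below every control, as for 16.7% of all genes tested at that age. The counts behind these values were 45, 24 and 16 in knockouts and 315, 134 and 155 in controls. The mean was 0.794 ± 0.407 CPM in knockouts and 5.31 ± 2.48 CPM in controls (SD, n = 3 each), a 6.67-fold lower level with a log2 fold change of -2.74 ± 0.50 (SE; edgeR adjusted p = 0.0145). The call ended without control 1 (log2 -2.30, edgeR adjusted p = 0.0656), without knockout 2 (log2 -2.63, edgeR adjusted p = 0.0622) and without knockout 3 (log2 -2.44, edgeR adjusted p = 0.0601). The log2 fold change stayed between -3.21 and -2.30 when any 1 library was left out.

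At 28 weeks Ptges had 2.26, 0.560 and 4.26 CPM in knockouts, against 8.47, 6.63 and 6.02 CPM in controls. The groups again did not overlap, as for 22.8% of genes in this direction, but the knockout libraries differed among themselves more than at 20 weeks. The log2 fold change was -1.57 ± 0.64 (SE) and missed the threshold (edgeR adjusted p = 0.138). Some markers of other epithelia were, like Ptges, lower in knockouts than in controls at 20 weeks. Of the 8 parietal and simple epithelial markers 3 fell in knockouts and none rose, and their summed level was 411 to 2128 CPM in knockouts and 2546 to 5331 CPM in controls. Within the 20-week controls, control 1 had the most Ptges (8.17 CPM) and the lowest of these sums. Control 2 had the least Ptges (3.69 CPM) and the highest sum. At 28 weeks control 1 again had the most Ptges of the controls (8.47 CPM) and their lowest sum (3584 CPM). Collecting duct and distal markers summed to 12.2 to 63.2 CPM in knockouts and 332 to 710 CPM in controls, with 3 of 5 tested lower. Hsd11b2 of that list was not called at 20 weeks (log2 0.67, edgeR adjusted p = 0.819). It had 45.6, 1.96 and 1.22 CPM in knockouts, against 2.00, 4.08 and 24.5 CPM in controls. The gene Mal alone had 8.65 to 14.4 CPM in knockouts and 290 to 687 CPM in controls, which was most of the control sums. At 28 weeks the summed level was 8.18 to 376 CPM in knockouts and 249 to 637 CPM in controls, with overlap. Their defining water channel Aqp2 had a single read at 20 weeks, in control 1, while the sodium channel subunits Scnn1b and Scnn1g had no read in knockouts 2 and 3. At 28 weeks 2 of 8 parietal and simple epithelial markers and 3 of 7 collecting duct and distal markers tested were lower. Thick limb markers were lower for 1 of 3 at 20 weeks and 1 of 4 at 28 weeks, and proximal tubule markers for 1 of 3 and 0 of 3 tested. Knockout 1 at 28 weeks, whose epithelial sum of 7079 CPM came mostly from Krt8, had 18.9 CPM of the E-cadherin gene Cdh1, against 509 to 805 CPM in controls. Cdh1 was among the 6 of 8 markers below every control in that library. Its Epcam level of 478 CPM was above every control (229 to 375 CPM), as was its Krt8 level. Its Mal level of 363 CPM lay within the control range (198 to 586 CPM). The part of these cell types in the Ptges result was not tested, and in such bulk samples fewer cells of a type and less RNA per cell cannot be told apart.

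**Figure D2:**
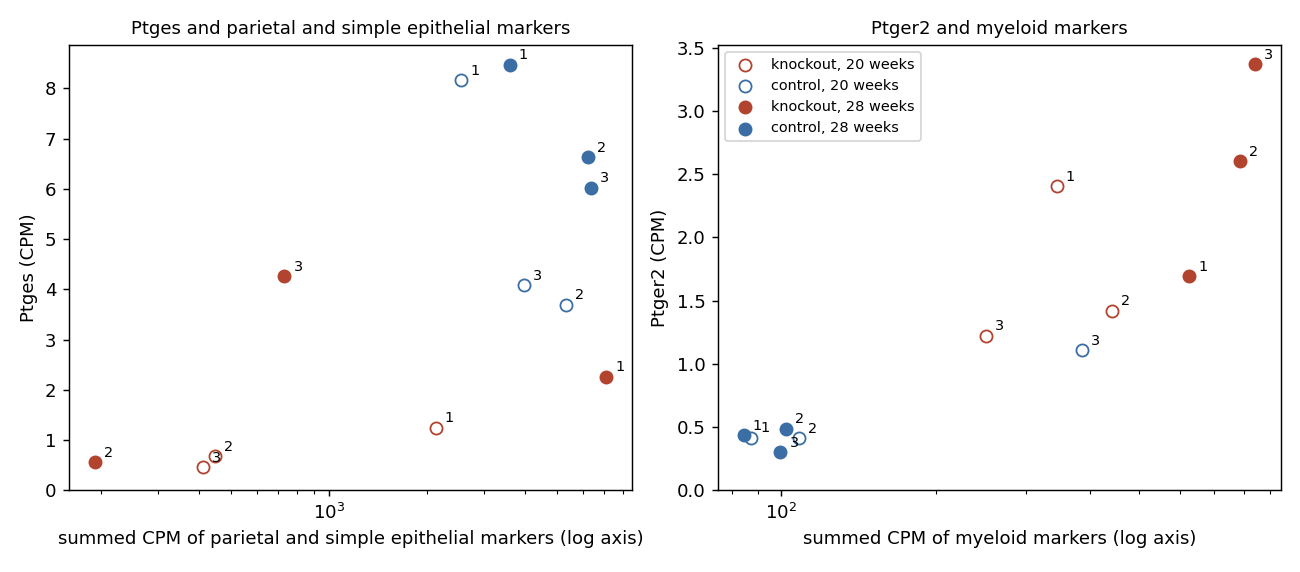
Left, Ptges (CPM) against the summed CPM of 8 parietal and simple epithelial markers; right, Ptger2 (CPM) against the summed CPM of 9 myeloid markers; both horizontal axes are logarithmic, and each point is 1 of the 12 libraries, numbered within its group. Knockout 1 at 28 weeks has 2.26 CPM of Ptges at an epithelial sum of 7079 CPM, of which Krt8 is 5545 CPM and in which 6 of the 8 markers are below every control of that age, and the 3 knockouts at 28 weeks hold the highest myeloid sums (625 to 840 CPM).

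Ptges2, the membrane-associated synthase whose level is usually constant, did not follow Ptges. At 20 weeks it had 29.7, 36.0 and 28.7 CPM in knockouts, against 30.5, 49.5 and 40.9 CPM in controls. At 28 weeks Ptges2 had 63.4, 34.5 and 32.1 CPM in knockouts, against 32.5, 45.1 and 43.8 CPM in controls. The groups overlapped at both ages, and the log2 fold changes were -0.36 ± 0.21 and 0.10 ± 0.29 (SE; edgeR adjusted p = 0.356 and 0.854). The high 28-week value came from knockout 1 alone, and without it the log2 fold change was -0.30. The ratio of Ptges2 to Ptges in FPKM was 44.6 to 118 in knockouts and 6.98 to 25.1 in controls at 20 weeks, and 14.1 to 115 in knockouts and 7.17 to 13.6 in controls at 28 weeks. The cytosolic synthase Ptges3, which doubles as a co-chaperone, supplied most of the FPKM summed over the 3 PGE2 synthase genes, and Ptges supplied 0.113% to 0.354% of that sum in knockouts and 0.788% to 2.12% in controls at 20 weeks.

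Ptgis, prostacyclin synthase, was low in every group. At 20 weeks it had 1.63, 2.44 and 1.17 CPM in knockouts, against 0.752, 0.468 and 0.632 CPM in controls. At 28 weeks Ptgis had 1.63, 1.62 and 1.17 CPM in knockouts, against 0.512, 1.00 and 0.527 CPM in controls. Every knockout library exceeded every control at both ages, which held for 15.5% of all genes at 20 weeks and 19.3% at 28 weeks. The log2 fold changes of 1.49 ± 0.42 and 1.11 ± 0.38 missed the threshold (SE; edgeR adjusted p = 0.0620 and 0.0877). Prostacyclin synthase is abundant in vascular cells, and many smooth muscle and mesangial markers were also higher: 9 of 10 rose at 20 weeks and 5 of 10 at 28 weeks. Their summed level was 9665 to 13588 CPM in knockouts and 4261 to 4815 CPM in controls at 20 weeks, and 6967 to 15690 CPM in knockouts and 2887 to 3171 CPM in controls at 28 weeks. In knockout 1 at 28 weeks, which had 1.63 CPM of Ptgis, 5 of the 10 markers were below every control. Acta2 (2354 CPM) and Tagln (4128.5 CPM) made up most of the sum of 6967 CPM in that library. Of 4 fibroblast markers tested 2 rose at 20 weeks, and 1 rose and 1 fell at 28 weeks. Of 7 endothelial markers 1 rose at 20 weeks and none was called at 28 weeks. The part of these cells in the Ptgis values was not tested.

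**Figure D3:**
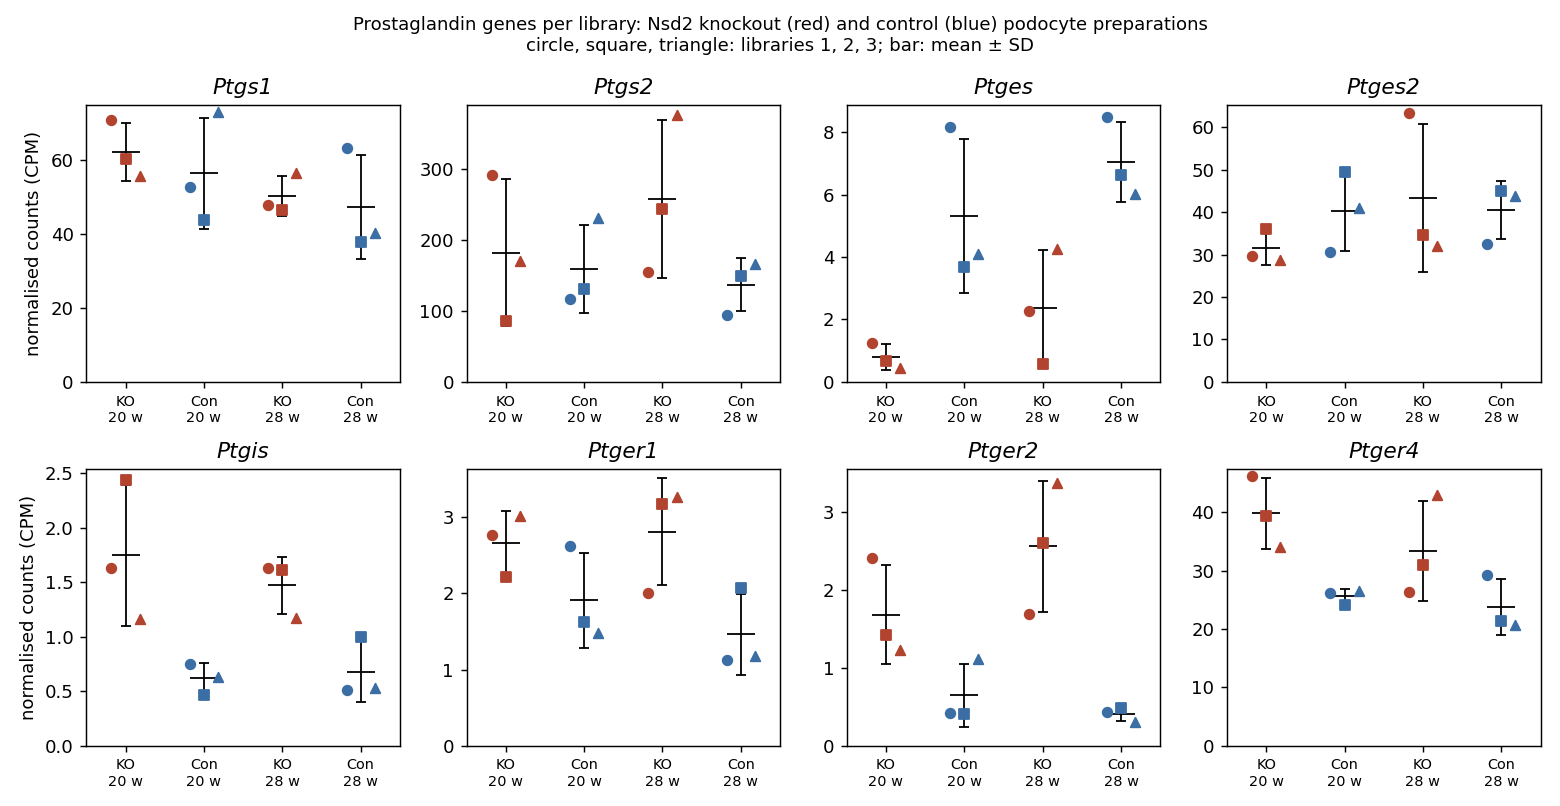
Normalised counts (CPM) of the 8 genes in each library, knockout (red) left of control (blue) at 20 and 28 weeks; circle, square and triangle are libraries 1, 2 and 3, and the bar is the mean ± SD. Ptges is lower in all knockouts at both ages, while Ptgis and Ptger2 are higher in all knockouts at both ages.

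Ptger2, which encodes the cyclic AMP-raising EP2 receptor, rose in 28-week knockouts. It had 1.69, 2.60 and 3.37 CPM there, against 0.435, 0.488 and 0.301 CPM in controls. Every knockout library was above every control, as for 19.3% of genes. The mean was 2.56 ± 0.840 CPM in knockouts and 0.408 ± 0.0963 CPM in controls (SD, n = 3 each), a 6.22-fold higher level with a log2 fold change of 2.64 ± 0.38 (SE; edgeR adjusted p = 0.00707). The sum of reads was 251 over the 3 knockouts and 49 over the 3 controls. The call held when any 1 library was left out, with a log2 fold change of 2.34 to 2.85 and an edgeR adjusted p between 0.00831 and 0.0392. Exons of Ptger2 share 144 and 246 bases with Gm49364 and Gm17173 on the opposite strand, and reads there cannot be assigned without a strand setting. The call also held with the near-alike controls 2 and 3 summed into 1 library (log2 2.61, edgeR adjusted p = 0.0359).

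At 20 weeks Ptger2 had 2.41, 1.42 and 1.22 CPM in knockouts, against 0.415, 0.413 and 1.11 CPM in controls. The groups did not overlap, as for 15.5% of genes in this direction, but only just: knockout 3 had 43 reads and control 3 had 42. The log2 fold change of 1.38 ± 0.52 missed the threshold (SE; edgeR adjusted p = 0.146). Some myeloid markers rose along with Ptger2, a receptor that macrophages also express, at 28 weeks. At 20 weeks none of the 9 was called, and their log2 fold changes differed in sign, with a median of -0.76. That median was the value of Tyrobp, which had 17.9 CPM in control 3 and 2.23 and 2.34 CPM in controls 1 and 2. The lysozyme gene Lyz2 went the other way at 20 weeks, with 223 to 392 CPM in knockouts and 53.0 to 202 CPM in controls (log2 1.44, edgeR adjusted p = 0.106). At 28 weeks 3 of 9 rose and none fell, and their summed level was 625 to 840 CPM in knockouts and 84.3 to 102 CPM in controls. Lysozyme (Lyz2) made up most of that sum, at 505 to 785 CPM in knockouts and 48.5 to 51.1 CPM in controls, and the macrophage marker Adgre1 had 6.43 to 8.57 CPM in knockouts and 1.18 to 1.71 CPM in controls. The pan-leukocyte gene Ptprc did not separate the groups at 28 weeks, with 11.2, 1.98 and 3.60 CPM in knockouts, against 1.41, 4.90 and 5.42 CPM in controls. Csf1r, also on the list, had negative log2 fold changes and was not called. It had 4.64 to 10.4 CPM in knockouts and 9.13 to 12.5 CPM in controls at 28 weeks (log2 -0.49, edgeR adjusted p = 0.330). At 20 weeks it had 4.38 to 10.3 CPM in knockouts and 13.8 to 18.2 CPM in controls (log2 -1.10, edgeR adjusted p = 0.0679). At 20 weeks control 3 had the highest myeloid sum of the controls, 386 CPM, and also their highest Ptger2 value. Knockout 1 had a lower sum than control 3, 345 CPM, but more Ptger2. Knockout 3 also had a lower sum, 251 CPM, with about the same Ptger2 as control 3. Knockout 2 had the highest sum at that age, 443 CPM, and less Ptger2 than knockout 1. None of the 9 myeloid markers was at 0 in any library, and their part in the Ptger2 result was not tested.

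Ptger4, which encodes the EP4 receptor, was the most abundant of the E receptors. At 20 weeks it had 46.1, 39.4 and 34.0 CPM in knockouts, against 26.2, 24.1 and 26.5 CPM in controls. The groups did not overlap, as for 15.5% of genes in this direction, and the log2 fold change of 0.64 ± 0.17 narrowly missed the threshold (SE; edgeR adjusted p = 0.0535). At 28 weeks Ptger4 had 26.3, 31.0 and 42.9 CPM in knockouts, against 29.3, 21.4 and 20.6 CPM in controls, with overlap. The 28-week log2 fold change was 0.49 ± 0.23 (SE; edgeR adjusted p = 0.192). Exons of Ptger4 share 82 bases with Ttc33 and 1015 bases with Gm15937 on the opposite strand, and without a stated strand setting reads in those bases cannot be assigned. The same holds for 156 exon bases of Ptgis and 148 of Ptgs1.

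Ptger1, which encodes the calcium-coupled EP1 receptor, had 2.77, 2.21 and 3.01 CPM in knockouts at 20 weeks, against 2.62, 1.63 and 1.48 CPM in controls. At 28 weeks Ptger1 had 2.01, 3.16 and 3.26 CPM in knockouts, against 1.13, 2.07 and 1.18 CPM in controls. The groups overlapped at both ages, and the log2 fold changes were 0.48 ± 0.34 and 0.94 ± 0.36 (SE; edgeR adjusted p = 0.451 and 0.117). Its values are uncertain, because without a stated strand setting reads of Ptger1 cannot be told apart from reads of the opposite strand.

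As a share of the FPKM summed over the 4 E receptor genes, Ptger2 was the gene that separated the genotypes at 28 weeks; no test was made of these shares. Ptger4 gave 85.1% to 88.4% of the sum in knockouts and 85.7% to 90.5% in controls. Ptger2 gave 4.24% to 5.60% in knockouts and 0.993% to 1.51% in controls. Ptger1 gave 3.72% to 5.04% in knockouts and 2.00% to 4.76% in controls. Ptger3, which lowers cyclic AMP and is not among the 8 genes, gave 2.34% to 6.98% in knockouts and 6.42% to 8.34% in controls. Thus Ptger4 stayed dominant in every library, the Ptger2 shares of the groups did not overlap, and those of the other 3 genes did. The sum itself was 8.96 to 14.4 FPKM in knockouts and 7.29 to 9.73 FPKM in controls. At 20 weeks the Ptger2 share was 2.52% to 3.62% in knockouts and 1.12% to 2.90% in controls, with overlap.

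**Figure D4:**
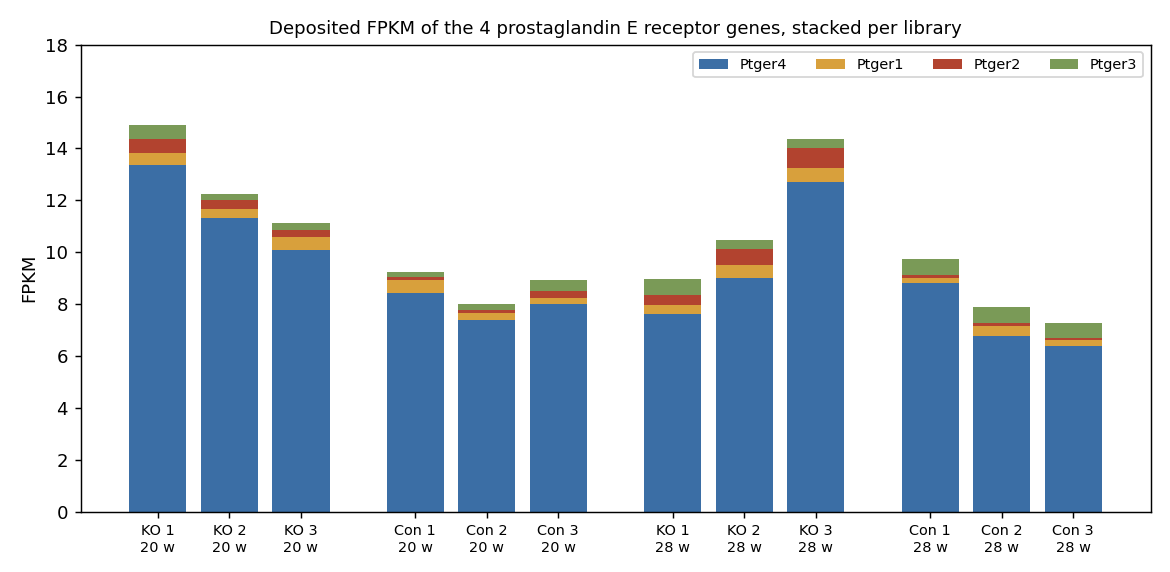
Deposited FPKM of the 4 prostaglandin E receptor genes stacked for each library, knockouts left of controls at each age. Ptger4 fills 85.1% or more of every bar, and the Ptger2 segment at 28 weeks is 4.24% to 5.60% in knockouts and 0.993% to 1.51% in controls.

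The change of the knockout effect with age was tested over all 12 libraries. None of the 8 genes was called, nor was any of 15662 genes (0% called by edgeR; 1428 had an unadjusted p below 0.05, and DESeq2 called 25). The effect at 28 weeks minus that at 20 weeks was 1.25 ± 0.66 on the log2 scale for Ptger2 (SE; edgeR adjusted p = 0.568) and 1.18 ± 0.86 for Ptges (SE; edgeR adjusted p = 0.648). A difference between the ages was therefore not shown for either gene, although each passed the test at 1 age alone. From 20 to 28 weeks no gene was called in controls or in knockouts by edgeR (0%, with 466 and 1759 unadjusted p below 0.05 and 1 and 36 genes called by DESeq2). The largest age difference among the 8 genes was that of Ptges in knockouts, where the 28-week over 20-week log2 fold change was 1.59 ± 0.64 (SE; edgeR adjusted p = 0.429). Age coincided with the deposited table, so the 2 cannot be told apart.

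Other genes of prostanoid synthesis, transport, breakdown and reception were taken from a list of 27. At 20 weeks 2 of 22 tested rose and 1 fell, with a median log2 fold change of -0.07, and at 28 weeks 3 of 23 rose and 5 fell, with a median of 0.14. Among all genes tested 4.79% rose and 5.13% fell at 20 weeks, and 9.33% rose and 11.9% fell at 28 weeks. The genes that export or import prostaglandins were among those of the list with the lowest log2 fold changes at 28 weeks. Slco2a1, the transporter that takes PGE2 into cells for breakdown, had 21.1, 13.6 and 23.4 CPM in knockouts, against 231, 190 and 193 CPM in controls, a log2 fold change of -3.40 ± 0.23 (SE; edgeR adjusted p = 0.00200). Abcc4, an efflux pump for PGE2 and cyclic nucleotides, had 38.9, 29.2 and 66.3 CPM in knockouts, against 362, 250 and 263 CPM in controls, a log2 fold change of -2.70 ± 0.34 (SE; edgeR adjusted p = 0.00525). The knockout and control libraries did not overlap for either gene, as for 22.8% of all genes in this direction, and both calls held when any 1 library was left out.

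At 20 weeks Slco2a1 had 72.4, 29.9 and 23.1 CPM in knockouts, against 163, 126 and 88.7 CPM in controls (log2 -1.59, edgeR adjusted p = 0.0573). Abcc4 had 127, 43.6 and 36.5 CPM in knockouts, against 179, 166 and 152 CPM in controls (log2 -1.26, edgeR adjusted p = 0.116). Knockout 1 was nearest to the controls for both genes, and without it both were called, with log2 fold changes of -2.24 and -2.04 (edgeR adjusted p = 0.00280 and 0.000966). Cbr2, a carbonyl reductase, rose at both ages, and its calls held when any 1 library was left out. It averaged 9.77 ± 0.947 CPM in knockouts and 1.22 ± 0.363 CPM in controls at 20 weeks, and 7.11 ± 3.60 CPM in knockouts and 0.759 ± 0.147 CPM in controls at 28 weeks (SD, n = 3 each; log2 3.00 and 3.22, edgeR adjusted p = 0.00286 and 0.00732). Ptgfrn, a membrane protein that limits ligand binding by the prostaglandin F receptor, fell at 28 weeks to 87.8 ± 15.6 CPM in knockouts, against 180 ± 8.29 CPM in controls (SD, n = 3 each; log2 -1.04, edgeR adjusted p = 0.00743).

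Pla2g4a, the cytosolic phospholipase that releases arachidonic acid, had 82.2, 105 and 121 CPM in 28-week knockouts, against 59.2, 54.8 and 58.0 CPM in controls. It rose, with a log2 fold change of 0.84 ± 0.16 (SE; edgeR adjusted p = 0.0141), but the call ended without control 2, control 3 or knockout 2, and the highest adjusted p on leaving out 1 library was 0.0661. Tbxa2r, the thromboxane receptor, rose at 20 weeks with 1.69, 3.21 and 2.84 CPM in knockouts, against 0.570, 0.0827 and 0.422 CPM in controls (log2 2.83, edgeR adjusted p = 0.0293). That call ended without control 1, control 3, knockout 2 or knockout 3, at an adjusted p of up to 0.0924. The 1 gene that fell at 20 weeks was the aldose reductase gene Akr1b3 (log2 -1.13, edgeR adjusted p = 0.0307), which is named after its value was seen, and 3 further genes were called at 28 weeks.

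**Figure D5:**
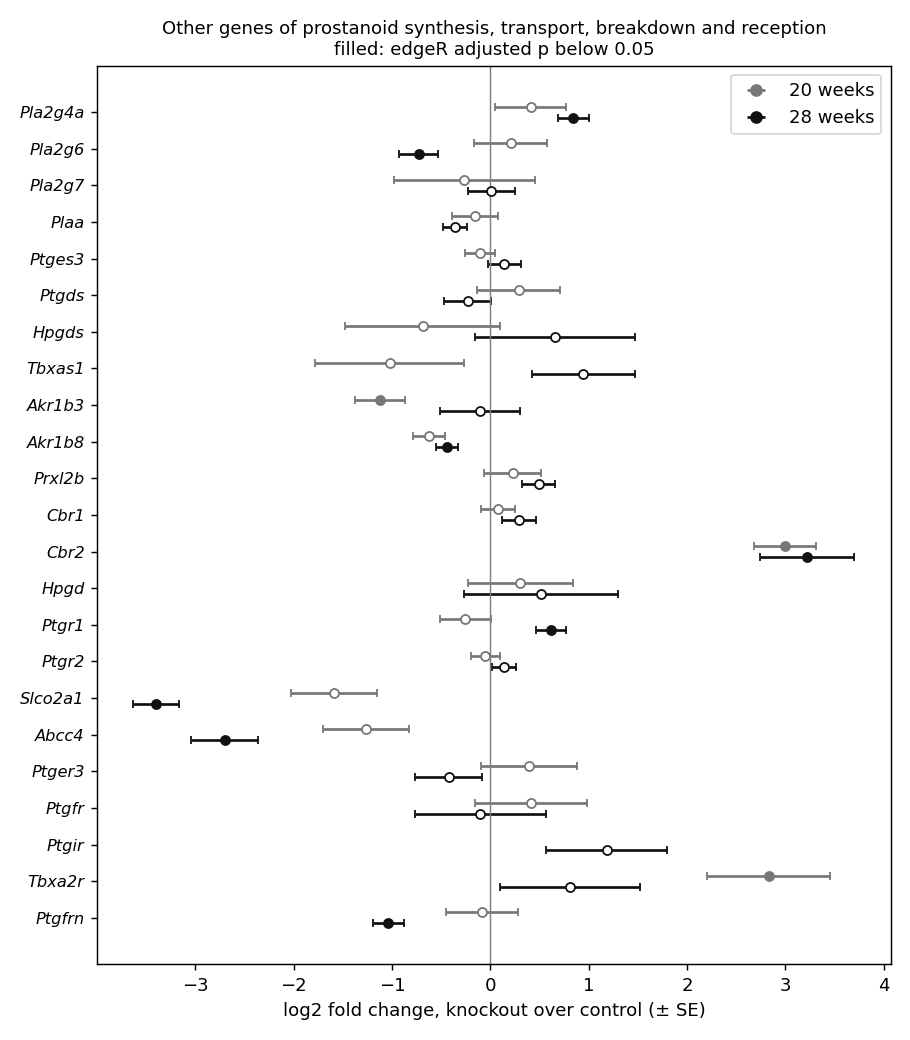
Log2 fold change of knockout over control with its standard error for the tested genes of the wider prostanoid list at 20 weeks (grey) and 28 weeks (black); filled points passed the edgeR test. Slco2a1 (-3.40) and Abcc4 (-2.70) lie far left at 28 weeks, and Cbr2 lies right at both ages (3.00 and 3.22).

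The lipoxygenase branch, which turns the same arachidonic acid into leukotrienes and related lipids, had 14 genes on its list. None of 8 tested rose and 3 fell at 20 weeks, and 1 of 8 rose and 1 fell at 28 weeks, with median log2 fold changes of -0.60 and -0.68. Among all genes tested 4.79% rose and 5.13% fell at 20 weeks, and 9.33% rose and 11.9% fell at 28 weeks. Leukotriene C4 synthase (Ltc4s) fell at both ages, to 0.862 ± 0.258 CPM in 20-week knockouts, against 10.6 ± 0.805 CPM in 20-week controls, and to 1.05 ± 0.508 CPM in 28-week knockouts, against 8.82 ± 1.56 CPM in 28-week controls (SD, n = 3 each). Its log2 fold changes were -3.61 and -3.06 (edgeR adjusted p = 0.00241 and 0.00572). The leukotriene receptor gene Cysltr1 fell at 20 weeks (log2 -2.89, edgeR adjusted p = 0.00399) and was not called at 28 weeks, where knockout 1 had 8.31 CPM and knockouts 2 and 3 had 0.198 and 1.23 CPM, against 2.92, 6.73 and 7.20 CPM in controls. Alox5ap, the helper protein of 5-lipoxygenase that is typical of myeloid cells, rose at 28 weeks to 3.22 ± 0.206 CPM in knockouts, against 0.399 ± 0.106 CPM in controls (SD, n = 3 each; log2 3.00, edgeR adjusted p = 0.00343). The calls of Ltc4s, of Cysltr1 at 20 weeks and of Alox5ap held when any 1 library was left out. Alox12 fell at 20 weeks (log2 -1.84, edgeR adjusted p = 0.0481), and this call ended whichever library was left out.

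Genes that cyclic AMP is known to induce, the second messenger of EP2 and EP4, were taken from a list of 13, and all 13 were tested at both ages. At 20 weeks 1 rose and 2 fell, and at 28 weeks 1 rose and 5 fell, with median log2 fold changes of -0.08 and -0.18. Among all genes tested 4.79% rose and 5.13% fell at 20 weeks, and 9.33% rose and 11.9% fell at 28 weeks. The 1 that rose at 28 weeks was Pde4b (log2 0.86, edgeR adjusted p = 0.0468). It is named after its value was seen, and its call was not refitted with libraries left out. The orphan nuclear receptor gene Nr4a2 had 1.72, 1.32 and 1.83 CPM in 28-week knockouts, against 6.99, 4.80 and 5.59 CPM in controls (log2 -1.83, edgeR adjusted p = 0.00684), and this call held when any 1 library was left out. Nr4a1 (log2 -1.64), the kinase gene Sik1 (log2 -1.34), the transcription factor gene Atf3 (log2 -1.13) and the coactivator gene Ppargc1a (log2 -2.26) also fell at 28 weeks (edgeR adjusted p = 0.0292, 0.0197, 0.0152 and 0.0426). At 20 weeks Sik1 (log2 -1.02) and Ppargc1a (log2 -2.12) fell and the phosphodiesterase gene Pde4d (log2 1.19) rose (edgeR adjusted p = 0.0455, 0.0323 and 0.0301). Those calls depended on single libraries. Atf3 at 28 weeks was not called without control 2 or control 3 (edgeR adjusted p up to 0.0545). Sik1 and Ppargc1a at 28 weeks were called in 2 of 6 fits with 1 library left out, Nr4a1 in 1 of 6, and at 20 weeks Pde4d in 2 of 6 and Sik1 and Ppargc1a in 1 of 6.

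The genes whose log2 CPM followed each member most closely over the 12 libraries are given as a description, out of 10576 genes averaging 5 CPM or more, and the points are libraries that share their group with the other libraries of the same genotype and age. For Ptger2 these were Tmem45a (Pearson r = 0.970), the chemokine gene Ccl7 (r = 0.968) and Rftn2 (r = 0.966). Ptges was followed by Blcap (r = 0.965), Ippk (r = 0.960) and the chemokine gene Ccl20 (r = 0.959). Ptger4 was followed by the adhesion genes Vcl (r = 0.963) and Fn1 (r = 0.960) and by Atp6v0a2 (r = 0.961). The first neighbour was Rrbp1 for Ptgs1 (r = 0.953), Stk38l for Ptgs2 (r = 0.932), Ntmt1 for Ptges2 (r = 0.977), Tmco4 for Ptgis (r = 0.958) and R74862 for Ptger1 (r = 0.924). No neighbour was shared by any pair of the 8 genes among the 3 closest of each.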

How the data were processed

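Per the file headers, the authors deposited 2 tables per age, which hold raw read counts of each gene symbol and FPKM values, that is counts divided by gene length and column total. Reads were placed on GRCm38 (mm10), per the submitters' processing notes. The aligner, the counter, strandedness and gene models were not given in the sources used here. Per the labels' protocols, a Qiagen kit was used for extraction and a SMARTER mRNA kit for sequencing libraries, and the batch label is shared by all 12.

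Each age was fitted on its counts by edgeR 4.0.16 (R 4.3.3), with TMM factors, the default filterByExpr and the quasi-likelihood F test. Adjustment was by Benjamini-Hochberg over all genes tested, and a call is an adjusted p below 0.05. CPM used TMM-scaled library sizes. Contrasts with age came from 1 model of all 12 libraries. Each SE is the log2 fold change over the root of F. The fits were tested on simulated data. With 0 reads, taken as a limit of 3 counts, a level of up to 0.0732 to 0.0989 CPM is possible, which covers counting error only. Alternatives were DESeq2 1.42.0, limma 3.58.1 on log2(FPKM + 0.1), RLE scaling, other filters, a replicate block, 1 model of all libraries, and leaving out each library.

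The 8 genes, the 3 wider pathway lists and the 9 marker lists were chosen with earlier results of these data known. Named genes are the 8, Nsd2, up to 6 called genes of each wider list by smallest p, markers beside a result, and for each of the 8 the 3 genes with the highest Pearson correlation of log2 CPM. Gene positions are from GENCODE M21 and promoters from RefSeq. Some items are not reported here.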

Additional observations from a re-analysis of the deposited data

How the results depend on the processing

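Ptges at 20 weeks was called in 10 of 13 alternatives, and the 3 that ended it were the fits without 1 library given above. Ptger2 at 28 weeks was called in 13 of 14, and DESeq2 added Ptges at 28 weeks (log2 -1.56, adjusted p = 0.0470). At 20 weeks DESeq2 called 3 of the 8 genes, adding Ptgis and Ptger4 (DESeq2 adjusted p = 0.0188 and 0.0166), limma on FPKM called 2 and the model of all 12 libraries called 2, each adding Ptgis (adjusted p = 0.0485 and 0.0365). Leaving out 1 library gave 0 to 1 of the 8 at 20 weeks and 1 at 28 weeks, and DESeq2 gave 2 at 28 weeks. Over all genes, DESeq2 called 2401 at 20 weeks, and leaving out 1 library gave 517 to 2023 calls at 20 weeks and 1266 to 3374 at 28 weeks. Summing controls 2 and 3 gave 1299 calls at 28 weeks. For the change of the knockout effect with age, DESeq2 called 25 genes, and for age it called 1 in controls and 36 in knockouts, where limma on FPKM called 1 and leaving out 1 library gave 0 to 4. Same-numbered knockouts and controls deviated together for number 2 at 20 weeks alone, with a correlation of 0.40. The other correlations were negative, at -0.10 and -0.13 at 20 weeks and at -0.62, -0.17 and -0.55 at 28 weeks. The numbers were therefore not treated as pairs. With the replicate block 1164 genes were called at 20 weeks and 332 at 28 weeks, 0 of the 8 among them at 28 weeks. In that fit Ptger2 had a 28-week log2 fold change of 2.60 (edgeR adjusted p = 0.0648). The Nsd2 call ended with the block at 28 weeks (adjusted p = 0.0526) and, at 20 weeks, when genes needed 1 CPM in 3 libraries (adjusted p = 0.0562). Of the wider genes the block also ended the calls of Cbr2, Ptgfrn, Pla2g4a, Nr4a2, Atf3, Ppargc1a, Sik1 and Nr4a1 at 28 weeks (adjusted p = 0.0523 to 0.104) and of Tbxa2r, Alox12 and Ppargc1a at 20 weeks (adjusted p = 0.0712 to 0.113). The model of all 12 libraries ended those of Cysltr1 and Alox12 at 20 weeks and of Pla2g4a at 28 weeks (adjusted p = 0.0724, 0.121 and 0.105). Summing controls 2 and 3 ended those of Pla2g4a, Atf3, Ppargc1a, Sik1 and Nr4a1 at 28 weeks (adjusted p = 0.0533 to 0.109). At 20 weeks the filter of 1 CPM ended Pde4d and Sik1, limma on FPKM ended Pde4d, and no filter ended Alox12 (adjusted p = 0.0512 to 0.0828). At 20 weeks Slco2a1 was called by DESeq2, by limma on FPKM, without the filter, with the block and in the model of all 12 libraries (adjusted p = 0.00216 to 0.0299). Signs turned for uncalled values alone. With limma on FPKM, Ptgs2 at 20 weeks (-0.00048) and Ptges2 at 28 weeks (-0.0396) turned. With 1 library left out, the log2 knockout effect ran between -0.31 and 0.56 for Ptgs2 and between -0.62 and 0.18 for Ptgfrn at 20 weeks, and between -0.30 and 0.22 for Ptges2 and between -0.0470 and 0.36 for Ptgs1 at 28 weeks (-0.0305 with controls 2 and 3 summed). The change of the effect with age ran between -0.26 and 0.21 for Ptgs1, -0.37 and 0.0217 for Ptger4, and -0.58 and 0.0268 for Ptgis. The age difference in controls ran between -0.14 and 0.20 for Ptges2 (-0.0446 with controls summed), -0.24 and 0.33 for Ptgis, -0.0729 and 0.18 for Nsd2, -0.37 and 0.15 for Ptgs2, and -0.25 and 0.00104 for Ptger4, and that in knockouts between -0.43 and 0.0555 for Ptgis and -0.0545 and 0.26 for Ptger1. The causes were not tested. With 3 libraries a group and Ptges, Ptgis, Ptger1 and Ptger2 at a few CPM, small differences were not detectable at this depth.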
